A study of Mus musculus with 2 samples.

Results

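The genes described here encode feedback inhibitors of the ERK mitogen-activated protein kinase pathway. They are 5 dual-specificity phosphatase genes (Dusp1, Dusp2, Dusp4, Dusp5 and Dusp6), 3 Sprouty genes (Spry1, Spry2 and Spry4) and 2 SPRED genes (Spred1 and Spred2). They were taken by symbol from the probe sets annotated to exactly 1 gene. All 10 were found, among 17874 genes measured, and each had 1 probe set. Expression was measured on 2 Affymetrix mouse arrays, 1 per group, in CFU-E cells (erythroid colony-forming units), progenitors of red cells that were isolated by negative selection from fetal livers at gestational day 13.5.

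Both groups came from EpoR-/- embryos of the strain BALB/c per the protocol, which lack the erythropoietin receptor in all cells, and livers were pooled by 40 to 50. Both were starved of growth factors for 1 h in Panserin 401 with 2-mercaptoethanol and BSA and then moved to Panserin 601. The 0 h cells were lysed at once, and the 3 h cells were kept in this medium for 3 h. On treatment the sources disagree: per the protocol the culture had no added growth factors, but the 3 h sample is labelled with supplemental growth factors and the 0 h sample as control. The genotype label of both samples names Epo, not its receptor, and a strain label is given for the 0 h sample only. No wild-type or erythropoietin-treated array was analysed here, so the comparison is 3 h of culture against its start within 1 genotype. With 1 array per group the differences carry no error and were not tested. The sources used here do not say whether the samples shared a pool of livers.

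In this pathway, ligand-bound receptors such as KIT, and in wild-type CFU-E cells the erythropoietin receptor, switch on RAS, which acts through RAF and MEK kinases to phosphorylate ERK. Active ERK enters the nucleus and induces many genes, among them those of its own inhibitors. DUSP phosphatases remove the activating phosphates from the threonine and tyrosine of MAP kinases, and Sprouty and SPRED proteins act further up, between the receptor and RAF. Because their transcripts are short-lived and follow ERK activity in many cell types, these genes are often read as a record of recent signalling.

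The 250 bases upstream of the annotated start were analysed for 8 of the 10 genes in RefSeq sequence of the build GRCm38.p6. Those of Dusp4 and Spry4 are not analysed here. Printed are the 3 with a match to a cAMP response element (CRE) or to the CArG box, motifs of factors through which growth signals can induce immediate early genes (CREB and SRF). Of these 3, Spred2 and Dusp5 were the 2 genes of the set lowest at 3 h relative to 0 h, and Dusp1 lay within 1.5-fold. Spred1, the next lowest, had no such match. Any link between the matches and the differences was not tested. Capitals mark the CRE half-site TGACG on either strand, the full CRE TGACGTCA, which holds the half-site on both strands, and the CArG box. The sequences run from 5′ to 3′ in the direction of the gene.
Dusp1 (chr17:26508473-26508722, minus strand): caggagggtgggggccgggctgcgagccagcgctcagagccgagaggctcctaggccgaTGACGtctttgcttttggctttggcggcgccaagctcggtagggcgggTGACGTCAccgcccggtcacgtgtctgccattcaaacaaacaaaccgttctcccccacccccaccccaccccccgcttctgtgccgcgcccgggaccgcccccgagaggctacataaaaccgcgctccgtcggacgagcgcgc
Dusp5 (chr19:53528895-53529144, plus strand): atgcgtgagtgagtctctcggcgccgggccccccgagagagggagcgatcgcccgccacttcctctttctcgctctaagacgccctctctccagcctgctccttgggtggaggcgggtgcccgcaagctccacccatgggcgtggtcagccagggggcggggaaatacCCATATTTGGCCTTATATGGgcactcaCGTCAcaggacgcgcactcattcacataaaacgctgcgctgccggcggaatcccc
Spred2 (chr11:19924192-19924441, plus strand): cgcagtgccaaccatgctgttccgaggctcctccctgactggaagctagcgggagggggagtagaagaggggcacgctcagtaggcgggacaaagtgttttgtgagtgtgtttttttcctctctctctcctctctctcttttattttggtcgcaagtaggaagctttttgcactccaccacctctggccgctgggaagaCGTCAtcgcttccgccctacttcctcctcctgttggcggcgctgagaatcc

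Upstream of Dusp1 the full CRE lay from -143 to -136 and a further half-site from -191 to -187, counted from the base before the start as -1. Upstream of Dusp5 2 CArG boxes stood side by side, from -82 to -73 and from -72 to -63, and a half-site followed on the other strand from -55 to -51. The only marked match of Spred2 was a half-site on the other strand from -51 to -47. A CRE half-site was thus found in 3 of 8 genes of the set, against 17.9% of 27025 promoters of the same length and 26.6% of the 8363 with a GC content in the range of the set (56% to 70.8%). A CArG box was found in 1 of 8, against 1.40% of all promoters and 1.09% of those of like GC content. The full CRE was likewise found in 1 of 8, against 1.62% of all and 2.80% of those of like GC content.

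The other motifs searched, on both strands, were CCGGAAG for ETS factors, TGANTCA for AP-1, CACGTG (E-box), TTCNNNGAA for STAT factors, AGATAA for GATA factors and GGGCGG for SP1. None of the ETS, AP-1, STAT and GATA letters was found in the 8 windows, against 7.05%, 6.87%, 7.18% and 10.3% of all promoters and 12.9%, 3.97%, 4.91% and 3.25% of those of like GC content. The E-box was found upstream of Dusp1 and Dusp2, against 6.05% of all promoters and 8.93% of those of like GC content. The SP1 letters were found upstream of 6 of 8, against 32.9% of all promoters and 62.6% of those of like GC content. Dusp6 and Spry2 had no match to any motif searched. These are matches of letters within 250 bases, not binding sites.

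**Figure D1:**
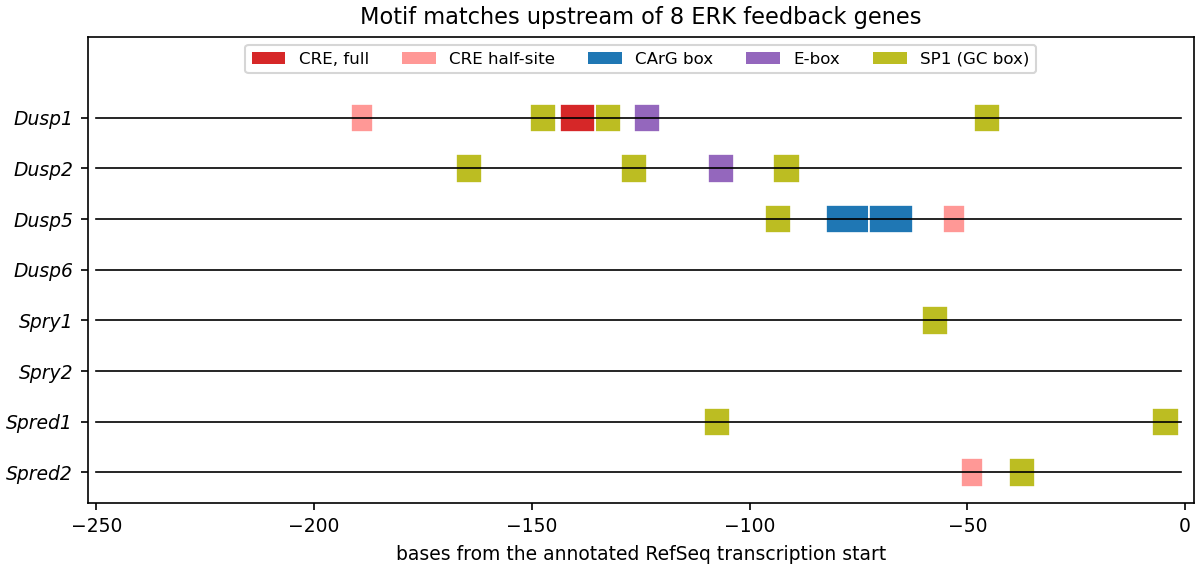
Motif matches in the 250 bases upstream of the annotated start of 8 genes; the horizontal axis is the distance from the start in bases, and each box spans 1 match on either strand. The 2 CArG boxes of Dusp5 adjoin each other between -82 and -63, the full CRE of Dusp1 lies from -143 to -136, and Dusp6 and Spry2 show no match.

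Expression values are log2 values normalized by the authors with RMA, and a difference is the value at 3 h minus that at 0 h. A floor was set at 5.70, the median of all gene values, and 9284 genes reached it on at least 1 array. Of the feedback genes, 9 reached it on both arrays and Spry4 on neither. The set did not move together: 1 gene was at least 1.5-fold higher at 3 h (Dusp4), 2 were at least 1.5-fold lower (Spred2 and Dusp5), and 6 of these 9 lay within 1.5-fold. Of all 9284 genes, 6.94% passed the same threshold upward, 4.80% downward and 88.3% neither. At 2-fold, 1 of 9 was lower, Spred2, and none was higher, where 0.872% of all genes were lower and 2.00% higher. The median difference of the 9 was -0.06, beside 0.01 over all 9284 genes. With so few members, these shares lie fewer than 2 genes away from those of all genes.

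**Figure D2:**
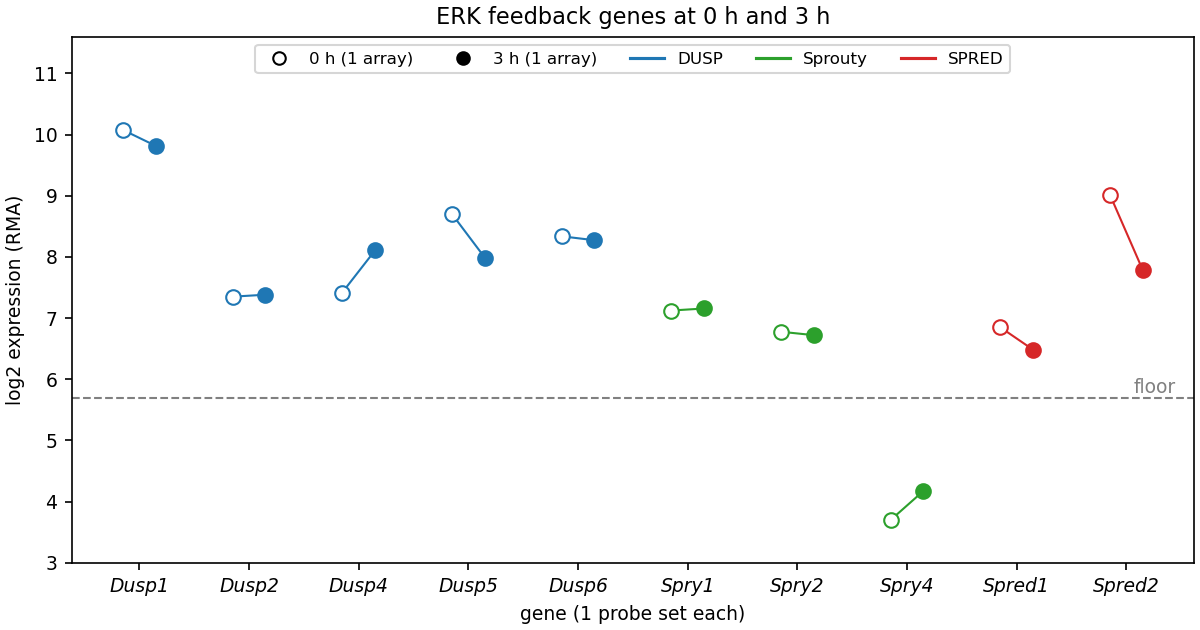
log2 expression of the 10 genes on the 0 h array (open circles) and the 3 h array (filled circles), coloured by family, with the floor of 5.70 as a dashed line. Spred2 goes from 9.02 to 7.79 and Dusp4 goes from 7.42 to 8.11, while Dusp2, Dusp6, Spry1 and Spry2 have nearly the same value on both arrays; levels of different genes come from different probes and are not comparable.

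The SPRED genes were both lower at 3 h. Their proteins bind the plasma membrane and bring the RAS inactivator neurofibromin to it, which limits the activation of RAF. Spred2 (probe set 1434403_at) had a log2 value of 9.02 at 0 h and 7.79 at 3 h. The difference of -1.23 is a 2.35-fold lower signal at 3 h, or 42.5% of that at 0 h. Only 37 of the 9284 genes (0.399%) were as low or lower, and the share was 0.369% among the 1899 genes whose mean level lay within 0.5 of that of Spred2. Spred1 (1460116_s_at), which is mutated in a human disorder resembling neurofibromatosis, went from 6.85 to 6.48. Its difference of -0.37, a 1.29-fold lower signal, was as low or lower in 12.3% of all genes. The Spred1 probe set is of a kind that can match several transcripts or genes. The difference of Spred2 was thus 0.87 below that of its paralog. The neurofibromin gene Nf1, named after its values were seen, did not reach the floor (5.49 and 5.31).

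The DUSP genes went in different directions. Dusp5 (1437199_at) encodes a nuclear phosphatase selective for ERK. It had values of 8.70 at 0 h and 7.99 at 3 h, a difference of -0.71 and a 1.64-fold lower signal. Of all genes 2.63% were as low or lower. Dusp6 (1415834_at) encodes the other ERK-selective phosphatase of the set, which holds ERK in the cytoplasm, and had values of 8.34 and 8.27. Its difference of -0.06 was well inside 1.5-fold, so that the ERK-selective phosphatase genes differed by 0.65 from each other.

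Dusp4 (1428834_at) was the only gene of the set at least 1.5-fold higher. Its product is a nuclear phosphatase that acts on ERK and on the stress kinases JNK and p38. It went from 7.42 to 8.11, a difference of 0.69 and a 1.61-fold higher signal. Of all genes 4.79% were as high or higher, and 3.92% of the 2017 genes of like mean level. The differences of Dusp4 and Dusp5 lay 1.41 apart, the width of the DUSP group.

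Dusp1 (1448830_at), an immediate early gene whose nuclear phosphatase prefers p38 and JNK over ERK, had values of 10.08 and 9.82. The difference of -0.26, a 1.20-fold lower signal, was as low or lower in 19.8% of all genes. Dusp2 (1450698_at), a nuclear phosphatase gene best known from activated lymphocytes and myeloid cells, had values of 7.35 and 7.38. Its difference was 0.03, and -0.0061 after quantile normalization of the arrays against each other, so it has no settled direction. Among the 5 DUSP genes 1 was thus higher and 1 lower by at least 1.5-fold, and 3 lay within it, with a median of -0.06.

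Of the Sprouty genes, Spry1 and Spry2 had nearly the same value on both arrays. Sprouty proteins are phosphorylated after receptor activation and bind adaptors and ubiquitin ligases such as GRB2 and CBL, which limits RAS activation. Spry1 (1415874_at) had values of 7.12 and 7.16, a difference of 0.03. Spry2 (1436584_at) had values of 6.78 and 6.72, a difference of -0.06. The first was thus 1.02-fold higher and the other 1.04-fold lower at 3 h. Spry4 (1422020_at) had values of 3.70 and 4.18, neither of them at the floor, and its difference of 0.48 lies among signals near background. A single probe set below the floor does not show that the gene is off.

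**Figure D3:**
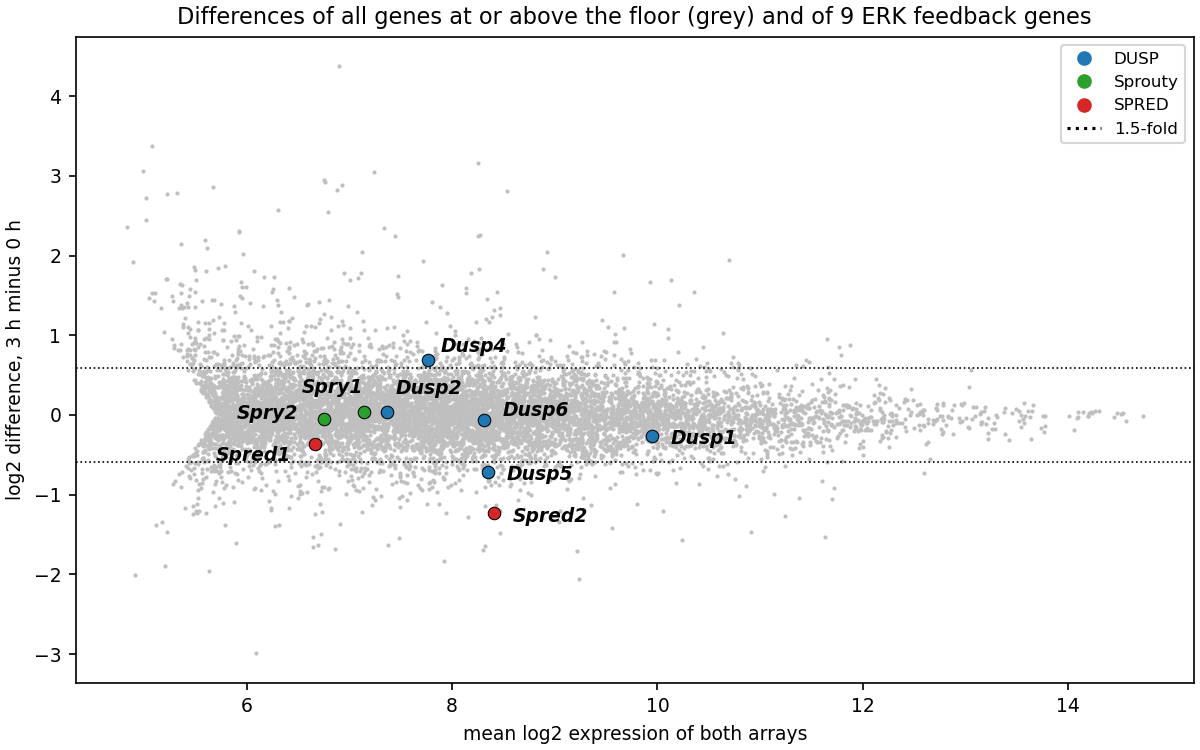
Difference at 3 h minus 0 h against the mean log2 level of both arrays for the 9284 genes at or above the floor (grey points) and the 9 feedback genes among them (coloured by family); dotted lines mark 1.5-fold. Spred2 (-1.23) and Dusp5 (-0.71) lie below the lower line and Dusp4 (0.69) above the upper one, and the other 6 lie between the lines.

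Other MAP kinase phosphatase genes also went both ways. All 5 measured, outside the set, reached the floor on each array, with 2 at least 1.5-fold lower, none 1.5-fold higher and a median of -0.07. Dusp16, whose product acts on JNK and p38, went from 10.00 to 9.08 (difference -0.92). Dusp9, which encodes a cytoplasmic ERK phosphatase, went from 8.63 to 7.96 (-0.67), and the JNK and p38 phosphatase gene Dusp8 from 6.70 to 7.14 (0.44). The probe set of Dusp9 is of a kind that can match several genes. Of 18 further dual-specificity phosphatase genes, most of which do not act chiefly on MAP kinases, 8 reached the floor. None of these differed by 1.5-fold, and the median was -0.08; Dusp12 (-0.44), Dusp19 (-0.36) and Dusp28 (-0.25) differed most.

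Upstream, 10 of 23 measured ligand genes of receptor tyrosine kinases reached the floor. By at least 1.5-fold 3 were higher and 4 lower, with a median of -0.23. Only 8 of the 10 reached the floor on both arrays, and the others at 3 h only, where they were higher. The median of all 23 was 0.02. The growth factor genes Pdgfb (5.15 to 6.75), Csf1 (6.54 to 7.71) and Pdgfa (5.88 to 6.78) differed most and were higher, Pdgfb from below the floor. Of the lower ones Kitl, the gene of the KIT ligand stem cell factor, differed most (6.96 to 6.07). Of 25 receptor genes 14 reached the floor, 2 of them at least 1.5-fold higher and 1 lower. Their median was 0.04, and -0.0038 after quantile normalization. Kit, the receptor for stem cell factor on CFU-E cells, had values of 9.01 and 9.03. Csf1r, also a macrophage marker, differed by 0.997, the hepatocyte growth factor receptor gene Met by 0.93 and Fgfr4 by -0.59. Epor, the deleted gene per the protocol, had values of 7.08 and 6.89, and since it is unknown whether its probes lie within the deletion, these values check nothing about the genotype.

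Genes of the relay from adaptors through RAS to ERK differed little. Of 16 measured 15 reached the floor, 13 of them on both arrays and the others at 3 h only. Of the 15, 10 were higher and 5 lower, with a median of 0.06. The 1 past 1.5-fold was Gab2 (6.44 to 7.10), which encodes a docking adaptor. Its paralog Gab1 (0.50) and the scaffold gene Ksr1 (0.46, below the floor at 0 h) came next, and the MEK gene Map2k1 had values of 9.20 and 9.27. Of the JNK and p38 kinase genes, whose products several DUSP phosphatases act on, 8 of 13 reached the floor and none differed by 1.5-fold. Their median was 0.17, and the JNK gene Mapk10 (0.51, below the floor at 0 h), Map3k5 (0.46) and Map2k4 (0.37) differed most.

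Other inhibitors of receptor and cytokine signalling had a median of 0.24 over the 18 of 24 that reached the floor. Only 15 of the 18 reached it on both arrays, and the others at 3 h only, where they were higher. The median of all 24 was 0.20. By at least 1.5-fold 1 of the 18 was higher and 2 were lower. Lrig1, whose product promotes receptor breakdown, differed by 0.88 and was below the floor at 0 h (5.53). The cytokine feedback genes Cish (-0.83) and Socs3 (-0.69) were lower, while Socs2 (0.44, below the floor at 0 h) was higher. The probe sets of Socs2 and Socs3 are of kinds that can match several transcripts or genes.

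Of the other transcripts known to be induced through ERK, 23 of 26 measured reached the floor, 20 of them on both arrays. By at least 1.5-fold 10 were lower and 3 higher. Of the higher ones Fosl1 (5.64 to 6.63) reached the floor at 3 h only. The median of the 23 was -0.34. That median was -0.67 with a floor 1 unit higher and -0.23 with no floor. The AP-1 gene Fosb (difference -2.99) and the early growth response gene Egr3 (difference -1.83) were lowest relative to 0 h, and the urokinase receptor gene Plaur (2.24) was highest. At 3 h Fosb was below the floor (4.59), so the size of its difference is uncertain. Fos differed by -1.53, Egr1 by -1.05 and the cyclin gene Ccnd1 by -0.81. The ETS factor gene Etv5 differed by -0.34, and its relative Etv4 did not reach the floor (5.34 and 5.43). Within 1.5-fold lay 6 of the 9 feedback genes and 10 of 23 of these transcripts, where 88.3% of all genes did. All 9 feedback genes reached the floor on both arrays, unlike the 23. The difference between the lists was not tested. Of 6 mRNA decay regulator genes 5 lay within 1.5-fold, and the median was -0.14. Zfp36, whose product speeds the decay of many immediate early transcripts, was the 1 past it (-0.83), and Zfp36l2 (-0.18) and Khsrp (-0.15) came next.

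**Figure D4:**
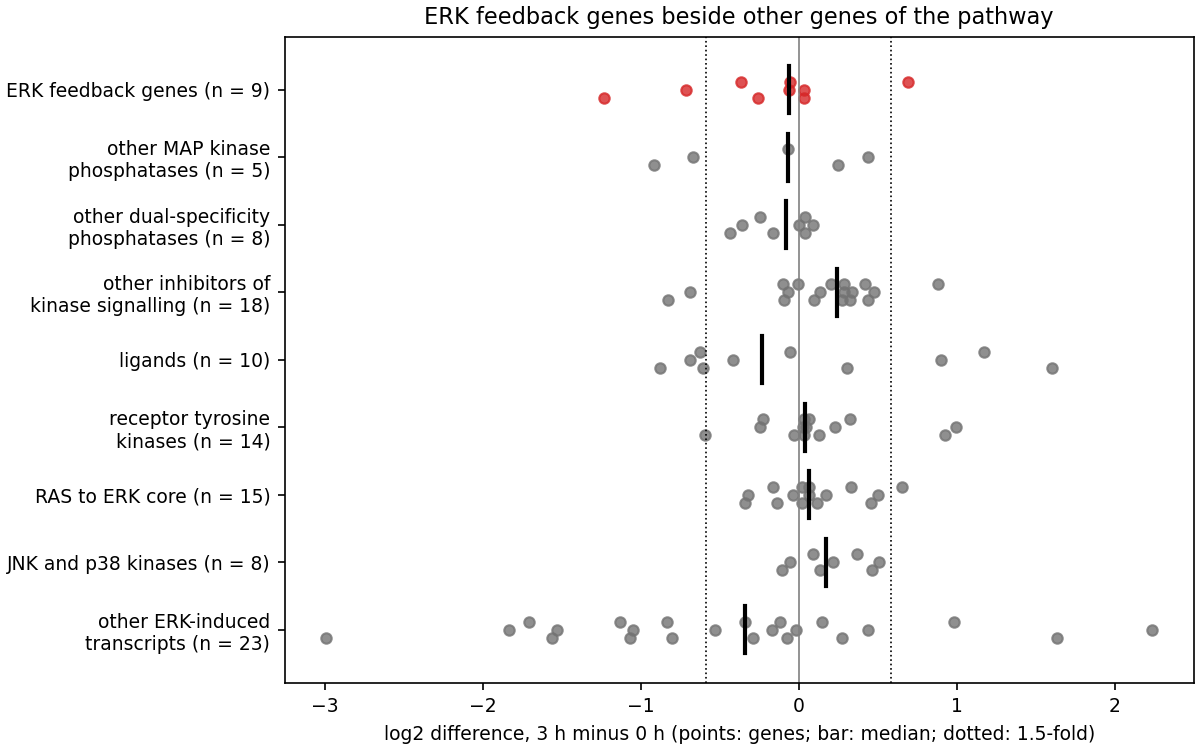
Difference at 3 h minus 0 h of each gene at or above the floor (points), by list, with the list's median as a bar and dotted lines at 1.5-fold. The feedback genes (red, n = 9) have a median of -0.06 and spread from -1.23 to 0.69, the RAS to ERK genes lie mostly near 0, and the other ERK-induced transcripts spread from -2.99 to 2.24.

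Markers of other cells differed between the same arrays, and several genes of the set, Dusp1 and the Sprouty genes among them, are expressed in many cell types. In bulk samples fewer cells of a type and less RNA per cell cannot be told apart. Granulocyte and mast cell markers were higher at 3 h in all 10 of 17 measured that reached the floor, with a median of 0.97. Only 7 of these reached it on both arrays, and the others at 3 h only. Markers below the floor on both arrays went both ways, and the median of all 17 was 0.60. The summed signal, on the log2 scale, was 12.69 at 0 h and 13.62 at 3 h. S100a9 (1.94), S100a8 (1.70) and Camp (1.67) differed most, Camp from below the floor at 0 h (5.11). Of 16 macrophage and monocyte markers 5 reached the floor. By at least 1.5-fold 4 were higher and 1 lower, with a median of 0.80 (0.12 over all 16) and a summed signal of 10.77 and 11.39. Lyz2 differed by 1.83, Csf1r by 0.997 and Vcam1 by -0.98. Hepatocyte markers were lower in 16 of 18, with a median of -0.18 and a summed signal of 16.91 and 16.82, while Krt8 (0.95) and Krt18 (0.88) were higher and Apob (-0.79) lower. Hepatocyte transcripts were prominent on both arrays. Afp (14.60 and 14.53) and Alb (14.15 and 13.96) were near the highest probe-set value of each array (14.7), and the summed signal weighs such bright genes most. The part of all these markers in the differences of the feedback genes was not tested.

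Of the CFU-E and erythroid markers, all 15 measured reached the floor, 11 higher and 4 lower at 3 h, with a median of 0.13. Slc4a1 (2.83), Nfe2 (1.11) and Gata1 (0.83) differed most, and the summed signal was 14.69 and 14.91. Slc4a1 was below the floor at 0 h (5.47), and its probe set is of the kind open to several genes. The median was 0.14 over 6 endothelial and stromal markers at the floor, where Col1a1 (0.37), Pecam1 (0.27) and Col3a1 (0.27) differed most, with Pecam1 below the floor at 0 h. Of 5 megakaryocyte markers 4 reached the floor, but only Itga2b (-0.09) on both arrays; Gp1bb (2.19) and Gp9 (0.47) were below it at 0 h, and the median of all 5 was 0.07. Of 9 genes listed as lymphoid markers 2 reached the floor, Ighm (0.74) at 3 h only and Ptprc (0.69) on both arrays. The median of all 9 was 0.24. The part of these in the results was not tested either.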

How the data were processed

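The table used holds log2 expression values of 20666 probe sets on 2 arrays, deposited by the authors. Per the submitters' processing notes they were made with RMA and the affy package; for their versions, and for which arrays were normalized as 1 set, nothing is stated in those notes. RMA forces a common distribution on the probe intensities of arrays normalized as 1 set, and shrinks differences between dim signals. The probe-set values used here had medians of 5.29 at 0 h and 5.32 at 3 h. The values were used as deposited. The time in each sample title gave its group.

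A table of the platform's annotation gave 1 gene for 17918 probe sets, several for 79 and none for 2669, and 17767 were matched by Entrez ID to RefSeq genes of GRCm38.p6, which changed 0 symbols. Probe sets of a gene were averaged. Since each group has 1 array, there is no test, and precision is limited by the number of arrays. The members and lists were chosen with earlier results of these data known. Named were all 10 members, up to 3 genes with the largest difference at the floor from each list, and Kit, Epor, Map2k1, Egr1, Fos, Etv4, Etv5 and Ccnd1; other genes of this rule are not reported here. Nf1, Afp, Alb, Kitl, Socs2 and Fosl1 were named outside the rule, after their values were seen. Alternatives were quantile normalization, removal of an intensity trend (lowess, span 0.3), the brightest probe set, probe sets without suffix, no floor, a floor raised by 1 and a 2-fold threshold. Recovery of planted differences larger than 2-fold, in genes well above the floor, was tested on simulated data. The planted differences were all larger than that of any feedback gene, so the 2-fold call of Spred2 was not tested in this way. Nor were the 1.5-fold calls, the list medians and the motif matches. Python 3.11.15, numpy 2.4.6, pandas 2.3.3, statsmodels 0.14.6 and matplotlib 3.10.9 were used.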

Additional observations from a re-analysis of the deposited data

How the results depend on the processing

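With 2-fold in place of 1.5-fold the count of feedback genes past the threshold was 1 lower (from 2) and 0 higher (from 1). Under quantile normalization and removal of an intensity trend the differences of the 10 genes moved by at most 0.062 and 0.033, and Dusp2 changed sign in the first of these. Spred2 then ranged from -1.26 to -1.23, Dusp5 from -0.73 to -0.71 and Dusp4 from 0.66 to 0.69, all still past 1.5-fold. Choosing the brightest probe set changed nothing, since each gene has 1, and without suffixed probe sets Spred1 has no value. Medians of other lists moved more. With no floor they went from -0.23 to 0.02 for ligands, 0.80 to 0.12 for macrophage, 0.97 to 0.60 for granulocyte, 0.27 to 0.07 for megakaryocyte and 0.14 to 0.01 for endothelial and stromal markers, 0.17 to 0.06 for JNK and p38 kinases and -0.34 to -0.23 for other ERK-induced transcripts. With the higher floor the last became -0.67, other MAP kinase phosphatases went from -0.07 to -0.21, further dual-specificity phosphatases from -0.08 to 0.02 and endothelial and stromal markers to 0.01. Without suffixed probe sets ligands were at -0.05, JNK and p38 kinases at 0.29, granulocyte markers at 0.80 and endothelial and stromal markers at 0.01. No paired analysis was possible because each group has 1 array and the labels give no replicate numbers.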
